A study of Homo sapiens with 12 samples.

Results

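The epithelial keratins described here are KRT7, KRT8, KRT18, KRT19 and KRT80, taken by gene symbol from a table of RNA read counts. They are 5 of the 60612 named rows of that table, and all 5 were among the 11803 genes with enough reads to be tested. RNA came from CAMA-1, a long-established line of human breast carcinoma cells that carry the oestrogen receptor (ER), labelled wild-type and grown throughout in RPMI-1640 with 10% fetal bovine serum. The treatments were DMSO as vehicle, 100 nM abemaciclib (an inhibitor of CDK4 and CDK6), 5 nM fulvestrant (which degrades the ER) and the 2 drugs combined, for which the labels give no separate doses. The abemaciclib dose is that of the labels, whereas the study's methods give a higher dose unless otherwise noted. There were 3 libraries in each of the 4 groups, which the study describes as separate biological cultures of this single line, collected after 5 days of drug according to its account of the cell-line RNA-seq. The study asked how CDK4/6 inhibition acts on transcription when ER signalling is intact and when it is removed.

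Keratins are the intermediate filament proteins of epithelial cells. Each filament is built from pairs of a type I and a type II keratin, so the stability of one partner depends on the other. KRT8 (type II) and KRT18 (type I) form the founding pair of simple epithelia. KRT7 (type II) and KRT19 (type I, and unusually short because it lacks most of the tail domain) mark ductal and luminal cells, and all 4 are used by pathologists to recognise carcinomas of glandular origin. KRT80 is a type II keratin of differentiating epithelia that has been described near cell junctions.

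Libraries held 3299119 to 5164667 reads assigned to genes, and the mitochondrial ribosomal RNA MT-RNR2 took 4.91% to 7.78% of them. For each of the 12 libraries the highest correlation was with another of the same group. Fulvestrant replicate 3 stood furthest from its group, with a correlation of 0.970 across genes to replicate 2, and the keratin counts below were therefore also taken without it. Readout genes of both drugs differed between the groups. Cyclin A2 (CCNA2, an S-phase and mitotic cyclin) averaged 94.1 CPM in DMSO, 8.38 in abemaciclib and 6.97 in fulvestrant, and had 2 reads in all in the combination. GREB1, an ER target, averaged 81.1 CPM in DMSO, 127 under abemaciclib, 4.62 under fulvestrant and 7.68 under both drugs. CPM are counts per 1000000 reads after scaling between libraries, and because each transcript yields a read near its 3′ end they do not grow with transcript length.

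All 9 luminal markers listed (KRT8, KRT18, KRT19, EPCAM, CDH1, MUC1, ESR1, GATA3 and FOXA1) were measured at 62.7 CPM or more in every group mean. Of 10 basal or myoepithelial markers, 5 held at most 3 reads in every library, among them KRT5, KRT6A and TP63, and CNN1 was at 0 throughout. Of 12 mesenchymal markers, 7 were at 0 in every library and VIM held 2 to 11 reads. The collagen genes COL1A1 (48 to 102 reads per library) and COL3A1 (12 to 40) were the 2 that could be tested. COL1A1 averaged 16.1 CPM in DMSO and 22.3, 22.8 and 19.3 in abemaciclib, fulvestrant and the combination, and COL3A1 3.37, 5.16, 9.02 and 6.94. COL1A1 was called higher with each single drug, and COL3A1 with fulvestrant and with both. The summed level of the mesenchymal list ran from 18.4 to 22.4 CPM in DMSO, 27.6 to 33.9 under abemaciclib, 29.9 to 40.3 under fulvestrant and 26.0 to 28.6 under both drugs, above DMSO in all treated libraries, and its part in the keratin results was not tested. Of 8 markers of squamous differentiation, 7 held at most 3 reads in every library, and the other was KRT10.

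Of the 5 genes, 4 lie on chromosome 12 in the keratin gene clusters (GRCh38, GENCODE v44). KRT80 (ENSG00000167767) spans chr12:52168996-52192014 on the minus strand and KRT7 (ENSG00000135480) chr12:52232520-52252186 on the plus strand. KRT8 (ENSG00000170421) spans chr12:52897187-52949954 on the minus strand and KRT18 (ENSG00000111057) chr12:52948871-52952906 on the plus strand, so that their annotated bodies share 1084 bases, 525 of them exonic in both genes. None of the shared exonic bases falls in the last exon of the main transcript of either gene, which is where 3′ reads are expected to lie. KRT18 is the only type I keratin placed beside the type II genes, whereas KRT19 (ENSG00000171345) lies among the type I genes at chr17:41523617-41528308 on the minus strand. No other annotated gene overlapped the last exon of the main transcript of any of the 5.

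KRT19 was the most abundant of the keratins. It was measured at 1336, 1359.6 and 1429.5 CPM in the 3 DMSO libraries and at 2420.0, 2442 and 2392 CPM with abemaciclib. With fulvestrant it was at 2094, 2018 and 1838 CPM, and with both drugs at 1974, 1862 and 2052 CPM. All 9 drug-treated libraries lay above all DMSO libraries, the abemaciclib libraries lay above all others, and the fulvestrant and combination libraries overlapped. Among the 11803 genes tested, KRT19 ranked 63 by mean level in DMSO and 26 in abemaciclib.

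KRT7 was at 240.4, 210.0 and 188 CPM in DMSO. It reached 595, 564 and 599 CPM in abemaciclib, 582, 552 and 644 CPM in fulvestrant and 678, 598 and 584 CPM in the combination. Every treated library was above every DMSO library, and the 3 treated groups overlapped one another. Its rank by mean level moved from 761 in DMSO to between 173 and 198 in the treated groups.

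KRT80 was the scarcest member and the one that moved most. It was at 28.8, 31.9 and 45.7 CPM in DMSO (97 to 221 reads per library), 186, 159.8 and 149.8 CPM under abemaciclib, 145, 169 and 142 CPM under fulvestrant and 169, 165 and 153 CPM under both drugs. As for KRT7, the treated libraries all lay above the DMSO libraries and the treated groups overlapped. Its rank moved from 4704 in DMSO to 1011 in abemaciclib.

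The KRT8 and KRT18 pair followed another order. KRT8 was at 258, 286 and 261 CPM in DMSO, 354, 418 and 368 CPM under abemaciclib, 251, 331 and 241 CPM under fulvestrant and 232, 191 and 186 CPM under both drugs. Its abemaciclib libraries were above all others and its combination libraries below all others, whereas the fulvestrant libraries lay on both sides of the DMSO range, with replicate 2 high. KRT18 was at 543, 512 and 511 CPM in DMSO, 690.3, 708 and 619 CPM under abemaciclib, 498, 486 and 472 CPM under fulvestrant and 425, 385 and 440.0 CPM under both drugs. The 4 groups of KRT18 did not overlap, in the order abemaciclib, DMSO, fulvestrant and combination.

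**Figure D1:**
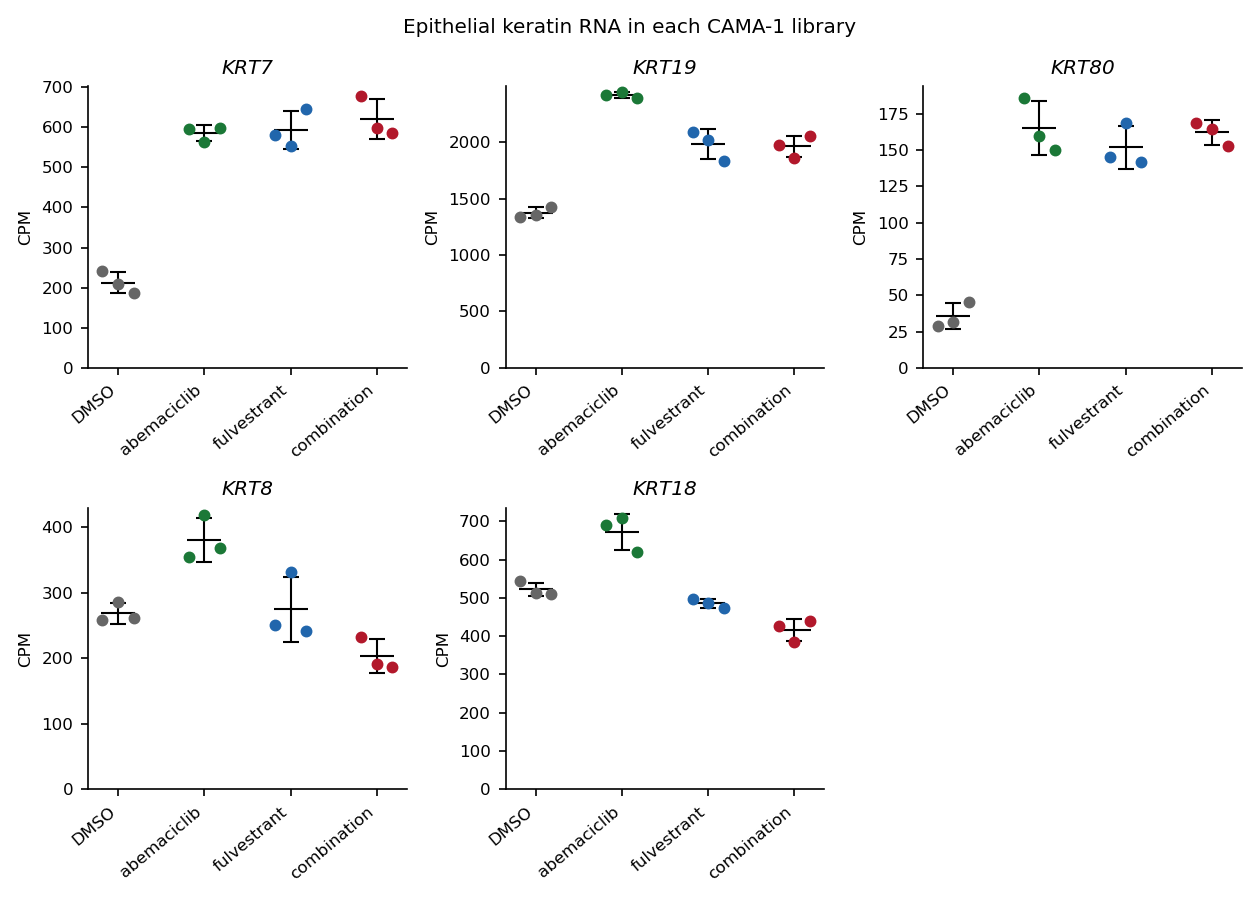
CPM (linear axis from 0) of the 5 keratins in each of the 12 libraries, 1 point per library, with the mean and SD of 3 libraries as a bar and whiskers. KRT7, KRT19 and KRT80 are above DMSO in all 9 treated libraries, whereas KRT8 and KRT18 are highest in abemaciclib and lowest in the combination.

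The first comparison asked what CDK4/6 inhibition alone did to these genes. All 5 keratins rose with abemaciclib. KRT80 rose 4.62-fold (log2 fold change 2.21 ± 0.13 SE, adjusted p = 3.04e-11), KRT7 2.76-fold (1.46 ± 0.09, adjusted p = 2.85e-13) and KRT19 1.76-fold (0.81 ± 0.07, adjusted p = 4.16e-10). The founding pair rose less, KRT8 1.41-fold (0.50 ± 0.11, adjusted p = 0.00113) and KRT18 1.29-fold (0.37 ± 0.07, adjusted p = 0.000257). These and the following values are from edgeR's quasi-likelihood test with Benjamini-Hochberg adjustment over all 11803 genes. In the same comparison 20.5% of all genes tested were called higher and 20.7% lower, and the median log2 fold change was 0.81 over the keratins against 0.00 over all genes. CPM are shares of the library, and in bulk RNA a larger proportion of cells expressing a keratin cannot be told apart from more RNA per cell.

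Fulvestrant alone raised 3 of the 5. KRT80 rose 4.23-fold (2.08 ± 0.13, adjusted p = 3.45e-11), KRT7 2.79-fold (1.48 ± 0.09, adjusted p = 7.78e-14) and KRT19 1.44-fold (0.53 ± 0.07, adjusted p = 4.63e-07). KRT8 (0.03, 95% confidence interval -0.20 to 0.26, adjusted p = 0.845) and KRT18 (-0.10, interval -0.26 to 0.05, adjusted p = 0.253) did not pass the test, and the sign of KRT8 turned to -0.03 when libraries were scaled by their totals alone. Of all genes tested 25.3% were called higher and 25.7% lower with fulvestrant. The same 3 keratins were called without fulvestrant replicate 3.

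Set side by side, the single drugs gave KRT7 and KRT80 levels whose difference did not pass the test. Fulvestrant minus abemaciclib was 0.02 for KRT7 (interval -0.16 to 0.19, adjusted p = 0.908) and -0.13 for KRT80 (interval -0.37 to 0.12, adjusted p = 0.463). KRT8 (-0.47 ± 0.11, adjusted p = 0.00286), KRT18 (-0.47 ± 0.07, adjusted p = 1.78e-05) and KRT19 (-0.29 ± 0.07, adjusted p = 0.00277) were lower with fulvestrant than with abemaciclib. Over all genes this comparison called 13.4% higher and 15.5% lower.

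The combination split the keratins against DMSO. KRT80 (4.52-fold, 2.18 ± 0.13, adjusted p = 1.13e-11), KRT7 (2.92-fold, 1.55 ± 0.09, adjusted p = 2.06e-14) and KRT19 (1.43-fold, 0.51 ± 0.07, adjusted p = 6.36e-07) rose. KRT8 fell 1.32-fold (-0.40 ± 0.11, adjusted p = 0.00441) and KRT18 fell 1.25-fold (-0.32 ± 0.07, adjusted p = 0.000617). The pair was thus higher than in vehicle under abemaciclib and lower under abemaciclib with fulvestrant. Genes called made up 27.7% (higher) and 27.5% (lower) of those tested.

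Adding fulvestrant to abemaciclib lowered 3 keratins. KRT8 fell 1.87-fold from its abemaciclib level (-0.90 ± 0.11, adjusted p = 2.39e-06), KRT18 1.61-fold (-0.69 ± 0.07, adjusted p = 3.27e-08) and KRT19 1.23-fold (-0.30 ± 0.07, adjusted p = 0.00143). KRT7 (0.08, interval -0.09 to 0.26, adjusted p = 0.494) and KRT80 (-0.03, interval -0.27 to 0.21, adjusted p = 0.868) did not pass the test. The share of all genes called was 15.9% higher and 17.7% lower.

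Adding abemaciclib to fulvestrant moved none of the 5 past the threshold in edgeR, where 0.297% of all genes were called higher and 1.63% lower. KRT8 came closest (-0.43 ± 0.11, unadjusted p = 0.000984, adjusted p = 0.0509), and KRT18 (-0.22 ± 0.07, unadjusted p = 0.00686, adjusted p = 0.175) was the only other one with an unadjusted p under 0.05. DESeq2 called KRT8 lower (-0.44, adjusted p = 0.021), as did edgeR when fulvestrant replicate 3 was left out (-0.52, adjusted p = 0.0127). Without fulvestrant replicate 2, the high one, the KRT8 change was -0.28 (adjusted p = 0.219), and without combination replicate 3 it was -0.38 (adjusted p = 0.223). KRT7 (0.06, interval -0.11 to 0.24), KRT19 (-0.02, interval -0.16 to 0.13) and KRT80 (0.10, interval -0.15 to 0.34) had intervals that stayed within 0.34 of 0.

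**Figure D2:**
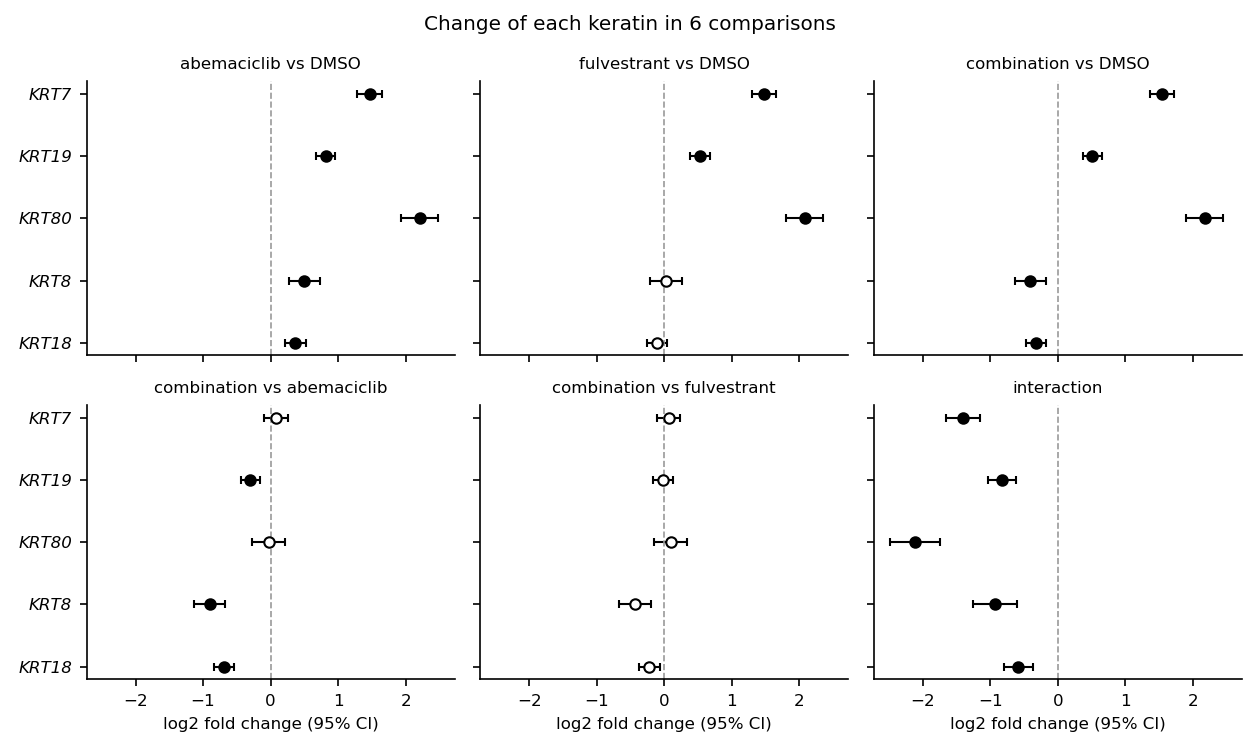
Log2 fold change of each keratin (x axis) with its 95% confidence interval in 6 comparisons, filled where the adjusted p was under 0.05 and open where it was not. KRT7, KRT19 and KRT80 are filled and to the right of 0 against DMSO under each treatment, all 5 are open for combination vs fulvestrant, and all 5 are to the left of 0 for the interaction.

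The design allows the effect of abemaciclib to be compared with and without fulvestrant in 1 interaction test. Such a reading holds if the combination used the single-drug doses, which the labels do not give. This interaction, the log2 change from fulvestrant to the combination minus that from DMSO to abemaciclib, was negative for all 5 keratins. It was -2.11 ± 0.17 for KRT80 (adjusted p = 3.8e-08), -1.40 ± 0.12 for KRT7 (adjusted p = 5.42e-09), -0.93 ± 0.16 for KRT8 (adjusted p = 0.000242), -0.83 ± 0.10 for KRT19 (adjusted p = 7.26e-07) and -0.59 ± 0.11 for KRT18 (adjusted p = 0.000193). The arithmetic behind these values differed between the genes. For KRT7 and KRT80 each drug alone gave a rise and the difference between that rise and the one under both drugs did not pass the test, whereas for KRT8 and KRT18 the rise that passed the test was that of abemaciclib alone. Over all genes the interaction was called positive for 9.49% and negative for 11.6%, and with libraries scaled by totals alone the numbers turned from 1120 positive and 1373 negative to 1626 and 1020, with the 5 keratins still called negative. That scaling shifted the median interaction of all genes by 0.11.

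**Figure D3:**
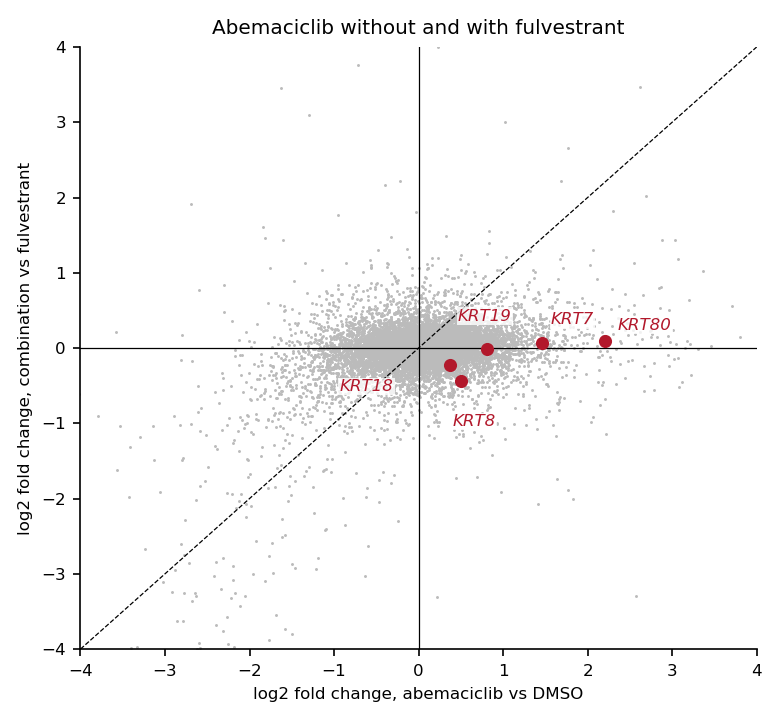
Log2 fold change with abemaciclib in the absence (x axis) and presence (y axis) of fulvestrant for 11803 genes in grey and the 5 keratins in red, with the dashed line marking equal change; 41 genes lie outside the plotted range. The keratins lie to the right of 0 on the x axis, from 0.37 to 2.21, and between -0.43 and 0.10 on the y axis.

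The make-up of the keratin reads shifted with treatment while KRT19 kept its place. The 5 genes took 0.246% ± 0.002 of all reads in DMSO (mean ± SD, n = 3), 0.412% ± 0.005 under abemaciclib, 0.342% ± 0.011 under fulvestrant and 0.340% ± 0.009 under both drugs. KRT19 held 57.0% ± 1.60 of the keratin reads in DMSO, 57.3% ± 0.58 under abemaciclib, 56.8% ± 1.79 under fulvestrant and 58.3% ± 1.67 under both drugs, with overlapping libraries. The share of KRT18 went from 21.6% in DMSO to 15.9%, 13.9% and 12.4% in abemaciclib, fulvestrant and the combination, and that of KRT8 from 11.1% to 8.99%, 7.86% and 6.03%. KRT7 went the other way, from 8.82% to 13.9%, 17.0% and 18.4%, and KRT80 from 1.47% to 3.91%, 4.35% and 4.82%. No test was made of these shares, since they restate the levels above.

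Type I reads (KRT18 and KRT19) outnumbered type II reads (KRT7, KRT8 and KRT80) in every library. Their ratio was 3.68 ± 0.21 in DMSO, 2.73 ± 0.03 under abemaciclib, 2.43 ± 0.20 under fulvestrant and 2.43 ± 0.25 under both drugs, and every treated library was below every DMSO library. The ratio of KRT8 to KRT18 was 0.515 ± 0.042 in DMSO, 0.566 ± 0.046 under abemaciclib, 0.565 ± 0.101 under fulvestrant and 0.488 ± 0.062 under both drugs, with overlapping groups. Single libraries ran from 0.424 in combination replicate 3 to 0.682 in fulvestrant replicate 2. The ratio of KRT7 to KRT8 climbed from 0.795 ± 0.120 in DMSO to 1.55 ± 0.18 under abemaciclib, 2.22 ± 0.51 under fulvestrant and 3.06 ± 0.13 under both drugs, where all 3 libraries exceeded those of the other groups.

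**Figure D4:**
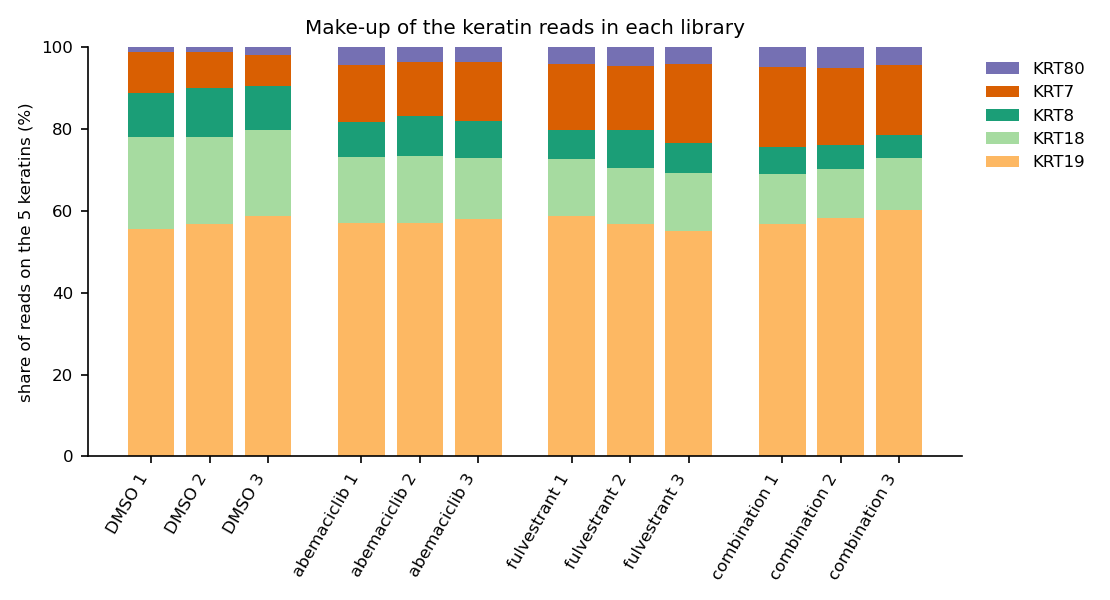
Share of the reads on the 5 keratins (y axis, %) held by each gene in each library (x axis), stacked to 100%. KRT19 holds 55.1% to 60.1% of every bar, while KRT8 and KRT18 give way to KRT7 and KRT80 in the treated libraries.

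Processed pseudogenes are numerous for the founding pair and could take or lend reads. The table listed 51 pseudogene rows for KRT8, with 41 reads over all libraries against 14851 for KRT8 itself, and 67 for KRT18, with 474 reads against 27810. KRT19 had 5 such rows with 4 reads, and none was listed for KRT7 or KRT80. Pseudogene reads came to 0.173% to 0.494% of the keratin reads of a library. How reads matching several places were treated is not stated in the sources used here.

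Beyond these 5 and KRT10, the keratin family was nearly silent. Of 50 other keratin genes listed, 24 had no read in any library, 39 of the 44 that were not tested held at most 3 reads in every library, and the highest count among the untested was 7. The 6 that could be tested were KRT10, KRT15, KRT16, KRT32, KRT81 and KRT86. Of these, 4 (KRT15, KRT16, KRT32 and KRT86) reached the limit for testing, 2.21 CPM, in no DMSO library and entered only through treated libraries where they were high, so they are described without a test.

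KRT81 and KRT32, hair keratins of type II and type I, were higher with abemaciclib alone than in any other group. KRT81 had 13, 18 and 14 reads in DMSO, 63, 75 and 60 under abemaciclib, 4, 3 and 7 under fulvestrant and 0, 1 and 11 under both drugs. It rose with abemaciclib (log2 fold change 2.13 ± 0.34, adjusted p = 2.1e-05), and reads of KRT81 may be shared with its near-identical neighbour KRT86. KRT81 reached the limit for testing in 3 DMSO and 3 abemaciclib libraries and in 0 of the others. Its lower level with fulvestrant is therefore described by these reads, without a test. KRT32 had 7, 9 and 2 reads in DMSO and 53, 34 and 24 under abemaciclib, 0, 0 and 3 under fulvestrant and none under both drugs. A count of 0 over the 3 combination libraries allows up to 0.212 CPM (3 reads, counting error only). Pooled KRT32 was at 38.8 times that limit in abemaciclib (8.23 CPM) and 6.30 times in DMSO (1.34 CPM). The error of those 2 groups is not included, and DMSO replicate 3 had 2 reads (0.413 CPM).

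KRT16, a stress-induced keratin of skin whose reads may be shared with close relatives, was low in every group. It was at 1.78, 1.14 and 1.45 CPM in DMSO, 13.2, 9.27 and 10.4 under abemaciclib, 6.18, 7.33 and 5.01 under fulvestrant and 9.14, 7.24 and 6.21 under both drugs. All treated libraries were above all DMSO libraries. KRT86 and KRT15 had 3 and 4 reads in all of DMSO and 44 and 36 in abemaciclib. They had 16 and 7 reads in fulvestrant and 28 and 23 in the combination. KRT10, a keratin of suprabasal epidermis, was the only abundant one, and its fall from 106 ± 16.4 to 85.8 ± 7.63 CPM with abemaciclib was small (-0.32 ± 0.12, adjusted p = 0.0348), with overlapping libraries.

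**Figure D5:**
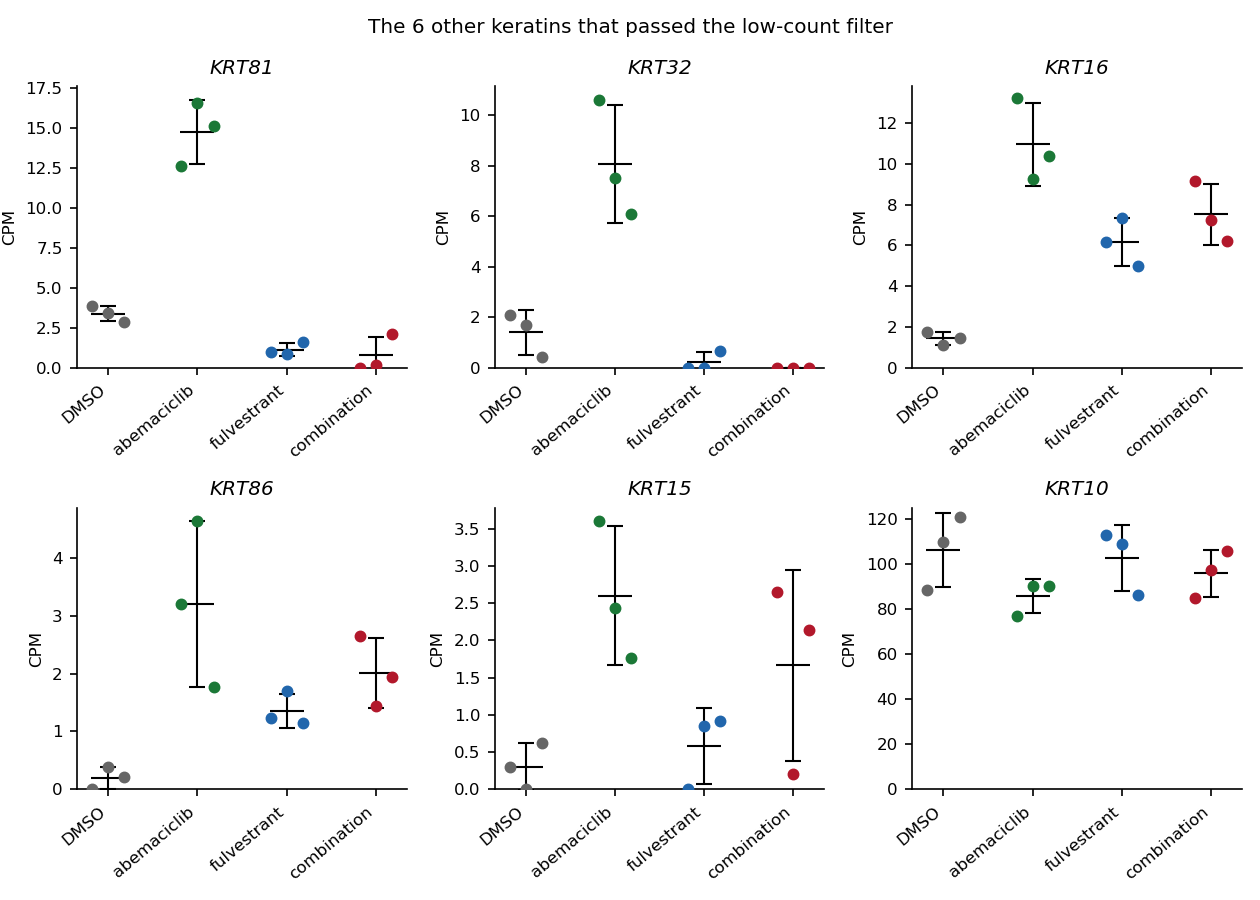
CPM (linear axis from 0, its range differing between panels) of the 6 other tested keratins in each library, with the mean and SD of 3 libraries. KRT81 and KRT32 are high in abemaciclib alone, KRT16 is above DMSO in all treated libraries, and KRT10 differs little between the groups.

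Keratin filaments are anchored to desmosomes and tied to other parts of the cytoskeleton by plakin cytolinkers. Of 20 genes of this kind 14 were tested, of which 10 rose with abemaciclib, 12 with fulvestrant and 11 with both, and the rest did not pass the test. Of all genes tested 20.5%, 25.3% and 27.7% were called higher in these comparisons. Their median log2 fold changes were 0.78, 0.79 and 0.76, against 0.00, 0.01 and 0.01 over all genes tested. With totals-only scaling 9 rose with abemaciclib. The interaction was called negative for 9 of the 14 and positive for 0 (median -0.86). Over all genes tested it was called negative for 11.6% and positive for 9.49%.

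Epiplakin (EPPK1), a keratin-binding plakin, went from 72.5 ± 3.29 CPM in DMSO to 236 ± 14.5 under abemaciclib, 217 ± 40.8 under fulvestrant and 166 ± 3.44 under both drugs. Its log2 fold changes against DMSO were 1.70, 1.58 and 1.19, and like KRT8, KRT18 and KRT19 it was lower in the combination than in abemaciclib (-0.51 ± 0.10, adjusted p = 0.000194). PERP, a desmosomal membrane protein, went from 21.3 ± 0.98 CPM to 52.7 ± 3.36, 86.9 ± 9.54 and 74.0 ± 3.85, and was higher in the combination than in abemaciclib (0.49 ± 0.10, adjusted p = 0.000483). The cytolinkers dystonin (DST) and MACF1 rose by 1.21 and 1.06 with abemaciclib and by 1.78 and 0.70 with fulvestrant, and plakoglobin (JUP), which joins desmosomal cadherins to the plaque, by 0.83 and 1.19. For these 5 genes the adjusted p in the 2 single-drug comparisons was at most 0.00346.

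Proteins that bind, chaperone or cleave keratins did not share a direction. Of 17 tested, 3 rose and 6 fell with abemaciclib, 2 rose and 6 fell with fulvestrant, and 1 rose and 7 fell with both, with medians of -0.06, -0.03 and -0.05. Over all genes the shares called were 20.5% higher and 20.7% lower, 25.3% and 25.7%, and 27.7% and 27.5%, so the rises with abemaciclib were near the share of all genes. The small heat shock protein HSPB1, which associates with keratin filaments, was at 2489 ± 202 CPM in DMSO, 6814 ± 387 under abemaciclib, 4176 ± 214 under fulvestrant and 4360.3 ± 241 under both drugs. It rose by 1.45 ± 0.08 with abemaciclib (adjusted p = 2.46e-14) and by 0.75 ± 0.08 with fulvestrant (adjusted p = 4.67e-09). Trichoplein (TCHP), pinin (PNN) and stratifin (SFN, the 14-3-3 sigma protein that binds KRT18) fell by 0.86, 0.74 and 0.54 with abemaciclib and by 0.62, 0.78 and 0.63 with fulvestrant.

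Among 18 other intermediate filament genes 8 were tested, and the abundant ones that moved encode the nuclear lamins. LMNB1 fell by 2.61 ± 0.11 with abemaciclib, by 2.74 ± 0.11 with fulvestrant and by 3.59 ± 0.12 with both, and LMNB2 by 0.68 ± 0.13, 1.19 ± 0.14 and 1.50 ± 0.14. LMNA, the A-type lamin gene, rose by 0.55 ± 0.16, 0.59 ± 0.16 and 0.44 ± 0.16. In all, 1 gene of this group rose and 2 fell with abemaciclib, and 1 rose and 3 fell with fulvestrant and with both. With abemaciclib this is near the 20.5% and 20.7% of all genes called. Over all genes 25.3% were called higher and 25.7% lower with fulvestrant, and 27.7% and 27.5% with both. The third counted as falling was the nestin gene NES, which averaged 1.25 CPM and is named here after its values were seen. NES reached the limit for testing, 2.21 CPM, in 2 DMSO libraries, 1 abemaciclib library and none of the others. It was thus tested through the groups where it was high, and its fall is not used as a result.

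Transcription factors of luminal cells were mixed. Of 17 tested, 6 rose and 1 fell with abemaciclib, 8 rose and 2 fell with fulvestrant, and 6 rose and 2 fell with both, with medians of 0.14, 0.25 and 0.22. Genes called higher were 20.5%, 25.3% and 27.7% of all those tested and genes called lower 20.7%, 25.7% and 27.5%. XBP1 rose with abemaciclib (0.57 ± 0.07, adjusted p = 1.59e-07) and was lower in the combination than in abemaciclib (-0.71 ± 0.07, adjusted p = 5.34e-09), as KRT8 and KRT18 were. EHF, an epithelial ETS factor, rose with abemaciclib (1.45 ± 0.19, adjusted p = 4.96e-07), and its relative ELF3 rose with fulvestrant (0.91 ± 0.12, adjusted p = 2.01e-07). The 1 that fell with abemaciclib was GATA3, named here after its values were seen. GATA3 averaged 3019 CPM in DMSO, 2576 under abemaciclib, 3688 under fulvestrant and 3680 under both drugs. TFAP2A rose with both single drugs (0.35 and 0.78), whereas the progesterone receptor (PGR) rose by 0.84 with abemaciclib and fell by 4.56 with fulvestrant. ESR1, the gene of the oestrogen receptor, was at 93.3 ± 5.42 CPM in DMSO and 95.3 ± 10.3 in fulvestrant, and this comparison did not pass the test (adjusted p = 0.768). Its level was 103 ± 3.43 CPM under abemaciclib and 81.5 ± 4.52 under both drugs. The combination libraries of ESR1 (76.3 to 84.5 CPM) lay below its abemaciclib libraries (98.9 to 105.6 CPM).

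The genes whose log2 CPM ran closest to each keratin over the 12 libraries were sought among 8471 genes averaging at least 10 CPM. Pearson's r is given as a measure of likeness, the libraries fall into the 4 treatment groups, and no test was made. For KRT7 the nearest were LHFPL2, COPA and PALLD (r = 0.99 each), and for KRT80 MYLK (0.99), TOM1L2 (0.99) and COL5A1 (0.98). Each of these 6 rose with both single drugs and with the combination, as the keratin did. They were picked for likeness over these same libraries, so a shared pattern goes with the choice and adds no support. MYLK (myosin light chain kinase) was at 9.48 ± 3.96 CPM in DMSO, 65.9 ± 14.2 under abemaciclib, 60.5 ± 3.42 under fulvestrant and 71.4 ± 3.55 under both drugs.

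For KRT19 the nearest genes were TUBB2A (r = 0.98), S100A10 (0.97) and CTSD (0.97), which were likewise highest in abemaciclib. S100A10, the annexin A2 partner p11, was at 94.1 ± 4.07, 311 ± 10.2, 212 ± 6.24 and 221 ± 11.4 CPM in DMSO, abemaciclib, fulvestrant and the combination. For KRT18 they were AHNAK2 (0.96), KCNK6 (0.94) and STC2 (0.93), and those of KRT8 included SLC25A1 (0.95) and CALR (0.94), all of which were highest in abemaciclib and lowest in the combination. Here too the shared order of groups goes with the choice by correlation. The neighbours of KRT18 moved more widely than KRT18 itself, with the secreted glycoprotein STC2 at 107 ± 14.1 CPM in DMSO, 385 ± 48.3 under abemaciclib, 39.3 ± 2.67 under fulvestrant and 31.9 ± 5.16 under both drugs.

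MYLK is also on the list of basal or myoepithelial markers, where it, ACTG2 and OXTR were the 3 of 10 genes that could be tested, and all 3 rose with each treatment. Of all genes tested, 20.5% were called higher with abemaciclib, 25.3% with fulvestrant and 27.7% with both. The summed level of the list ran from 17.8 to 24.0 CPM in DMSO, 76.1 to 118 under abemaciclib, 89.1 to 109.7 under fulvestrant and 101 to 104 under both drugs. It so lay above DMSO in the same libraries as KRT7, KRT19 and KRT80. MYLK, named above for its likeness to KRT80, held the largest part of it in the treated groups (means 65.9, 60.5 and 71.4 CPM). Its keratins KRT5, KRT6A, KRT6B, KRT14 and KRT17 held at most 7 reads in any library, the highest being KRT17, with group means of 0.70 to 0.89 CPM. The part of these markers in the keratin results was not tested.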

How the data were processed

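RNA was measured in 12 libraries of CAMA-1 cells, 3 per treatment, prepared with a QuantSeq 3′ FWD kit. The authors deposited raw counts of reads per gene symbol. According to the study's methods, reads were trimmed with BBDuk, aligned to hg38 with STAR and counted with featureCounts (version 2.0.1 in the submitters' processing notes) on a GENCODE annotation. Strand and multi-mapping settings are not given in the sources used here, and KRT8 and KRT18 overlap on opposite strands. The kit reads the 3′ end of polyadenylated RNA, so counts stand for transcripts rather than for transcript length. No molecular identifiers are named, so the limits given for counts of 0 cover counting error only.

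The table had 60656 rows, of which 44 without a gene name (0 reads) were left out. Differential expression was tested with edgeR 4.0.16 under R 4.3.3. Genes kept by filterByExpr (minimum count 10, minimum total 15) numbered 11803, libraries were scaled with TMM factors, and 1 model with a mean per group was fitted to all 12 libraries (robust quasi-likelihood). Standard errors were derived from the F statistic, intervals are at 95%, and p-values were adjusted by the Benjamini-Hochberg method over all genes, with a threshold of 0.05. The pipeline was tested on simulated data. DESeq2 1.42.0, used by the study in another version, other filters and scalings, a replicate block and the omission of each library were run as alternatives. Results for the gene lists and the other keratins were also recomputed under both other scalings and without fulvestrant replicate 3, which was chosen after seeing the data.

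The 5 keratins, the gene lists, the markers and the tests were chosen with earlier results of these data known. Named beside the 5 are every other keratin tested, up to 4 genes of each other list with the largest change past the threshold in each single-drug comparison (mean CPM of at least 10), the 3 genes most like each keratin in log2 CPM (prior count 2), and ESR1, CCNA2 and GREB1. Some genes this rule selects are not reported here. Positions are from GENCODE v44. No pair of replicates agreed within sampling noise, with a chi-square per degree of freedom of at least 1.88 in the 12 pairs. An exact permutation test of 3 against 3 libraries cannot give a two-sided p below 0.1, so single-gene tests rest on the model across all genes.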

Additional observations from a re-analysis of the deposited data

Results flagged for a closer look

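The effect of abemaciclib differed between cells with and without fulvestrant for each of the 5 keratins, by the interaction test across all 12 libraries (edgeR, Benjamini-Hochberg adjustment). Over all 11803 genes tested the interaction was called positive for 9.49% and negative for 11.6%. The labels do not give the doses of the combination, and this reading takes them to equal the single-drug doses. On the log2 scale the effect with fulvestrant minus the effect without it was -2.11 for KRT80, -1.40 for KRT7, -0.93 for KRT8, -0.83 for KRT19 and -0.59 for KRT18. Their adjusted p-values ran from 5.42e-09 for KRT7 to 0.000242 for KRT8. A negative interaction was not particular to the keratins. Of 14 desmosome and cytolinker genes tested 9 were called negative and 0 positive, and of 17 luminal transcription factors 5 and 0. Of 17 genes of proteins that bind, chaperone or cleave keratins 2 were called negative and 3 positive. In combination against fulvestrant few genes of any kind were called, 0.297% higher and 1.63% lower. For KRT7, KRT19 and KRT80 the change with abemaciclib went from 1.46, 0.81 and 2.21 without fulvestrant to 0.06, -0.02 and 0.10 with it. For KRT8 and KRT18 it went from 0.50 and 0.37 to -0.43 and -0.22. All 9 libraries given a drug lay above the 3 DMSO libraries for KRT7, KRT19 and KRT80, and the 3 abemaciclib libraries alone lay above DMSO for KRT18. The share of all genes with such an order was not counted.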

How the results depend on the processing

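Every call of the 5 keratins against DMSO, in combination against abemaciclib, in fulvestrant against abemaciclib and in the interaction kept its direction and its side of the threshold under each alternative run. The exception was KRT8 in combination against fulvestrant, not called in the main analysis (-0.43, adjusted p = 0.0509). The number of keratins called there went from 0 to 1, KRT8, with no low-count filter, RLE factors, library totals only, DESeq2 and the replicate block (KRT8 -0.42, adjusted p = 0.0248), and was 0 to 1 when a library was left out (1 without abemaciclib replicate 2, fulvestrant replicate 1 or 3, or combination replicate 1). Its adjusted p ran from 0.000106 with no low-count filter to 0.223 without combination replicate 3, and its direction was negative in each case. Genes called in that comparison went from 227 to 91 with at least 10 counts in every library, to 130 in a fit to the compared groups only, and to between 146 (without combination replicate 3) and 588 (without fulvestrant replicate 3) when a library was left out. Some uncalled values changed sign. With library totals only KRT8 was -0.034 in fulvestrant against DMSO, KRT80 0.020 in combination against abemaciclib and KRT19 0.032 in combination against fulvestrant. With a library left out these ran from -0.13 to 0.11, from -0.097 to 0.064 and from -0.067 to 0.021, KRT7 ran from -0.0065 to 0.13 in combination against fulvestrant and from -0.048 to 0.064 in fulvestrant against abemaciclib, and KRT10 was 0.051 in fulvestrant against DMSO without fulvestrant replicate 3. The replicate block changed no other call of the 5 keratins. Deviations from the group means of same-numbered libraries correlated at -0.21 to 0.12, over 0.1 in 2 of 18 pairs. Whether same-numbered libraries were handled together is not stated in the labels, and such correlations cannot decide it.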
